A study of Mus musculus with 5 samples.

Results

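Potassium, TRP and chloride channel genes were taken from the count table by name, as genes named Kcn, Trpa, Trpc, Trpm, Trpv or Clcn with the number of the family member, and kept where the counts of all 5 libraries summed to at least 50. Of 49315 genes in the table, 123 had such a name and 64 of these met the minimum. All 64 passed the filter on low counts and were among the 18727 genes tested. RNA came from lung endothelial cells of wild-type (WT) mice, with 3 libraries, and of TET2KO mice, with 2 libraries. TET2KO names an endothelium-specific knockout of TET2. Both genotypes had received angiotensin II, a vasoconstrictor hormone, by infusion for 28 days, so all libraries used here share that treatment. TET2 is a dioxygenase that oxidises methylated cytosines in DNA. The sources used here name no Cre line or promoter, deleted exons, age of the mice or isolation method, and do not tie libraries to single animals. The tests therefore rest on the scatter among these libraries, which may in part be technical.

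Potassium channels let potassium leave the cell and hold the membrane potential negative, which in endothelium increases the driving force for calcium entry and, through calcium, nitric oxide production. Many TRP channels are cation channels that admit calcium or magnesium in response to stretch, lipids, oxidants or emptied stores. CLC proteins carry chloride across the plasma membrane or exchange it for protons in endosomes and lysosomes. Leukocytes express several of the same families.

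Group names here are those of the labels. Tet2 itself was at 141, 174 and 131 CPM (counts scaled to a common library total) in WT replicates 1 to 3 and at 139 and 162 CPM in TET2KO replicates 1 and 2, a log2 fold change of 0.02 ± 0.19 (SE). Counts over the whole gene do not check a deletion whose exons are not given. All 16 genes of an endothelial marker list were counted in every library, Cdh5 at 484 to 1255 CPM, but the macrophage gene Lyz2 was at 1761 to 18211 CPM. The endothelial list held 0.398, 0.242 and 0.5% of counts in WT and 0.696 and 0.695% in TET2KO, and 16 of 16 of its genes were higher in both TET2KO libraries than in all WT libraries. A list of 11 macrophage and monocyte genes held 1.08, 3.33 and 0.37% of counts in WT and 0.557 and 1.04% in TET2KO, so WT replicate 2 stood apart. In bulk samples such as these, fewer cells of a type and less RNA per cell cannot be told apart. The log2 fold changes in the authors' deposited table did not follow the labels. They lay within 0.01 of those for WT replicate 3 and both TET2KO libraries over WT replicates 1 and 2 at 99.99% of genes, and within 0.01 of the labelled comparison at 2.75%. The fold changes of many genes below are therefore also given without WT replicate 2, and of some without WT replicate 3.

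The promoters of 6 channel genes, picked by their values in these data, are printed. Trpv2, Kcnk13, Kcnn3 and Kcnh4 were at least 2-fold higher in WT replicate 2 than in every other library. These are 4 of 64 channel genes, a share near the 6.02% of all genes. Trpm6 and Kcnh1 had the smallest p-values, but their edgeR adjusted p was 0.76 and 0.78. Each run covers 250 bases before and 50 bases after the transcript start in RefSeq on GRCm38.p6, read 5′ to 3′ on the strand of the gene, with every CG dinucleotide, the substrate site of DNA methylation, in capitals. In the order printed, the windows are chr11:62574236-62574535 (plus strand), chr12:99964249-99964548 (plus strand), chr3:89519914-89520213 (plus strand), chr11:100759729-100760028 (minus strand), chr19:18749480-18749779 (plus strand) and chr1:192190527-192190826 (plus strand).
Trpv2: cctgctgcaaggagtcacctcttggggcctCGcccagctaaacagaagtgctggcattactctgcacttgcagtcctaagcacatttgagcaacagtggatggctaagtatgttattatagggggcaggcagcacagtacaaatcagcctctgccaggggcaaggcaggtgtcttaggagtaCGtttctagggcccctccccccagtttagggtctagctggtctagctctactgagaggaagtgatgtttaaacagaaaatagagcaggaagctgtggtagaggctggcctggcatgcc
Kcnk13: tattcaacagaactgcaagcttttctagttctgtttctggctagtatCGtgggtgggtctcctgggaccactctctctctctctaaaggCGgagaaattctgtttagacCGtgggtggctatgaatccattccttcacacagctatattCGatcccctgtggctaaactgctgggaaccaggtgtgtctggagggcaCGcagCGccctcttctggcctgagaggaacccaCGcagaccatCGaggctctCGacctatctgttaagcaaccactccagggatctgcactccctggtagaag
Kcnn3: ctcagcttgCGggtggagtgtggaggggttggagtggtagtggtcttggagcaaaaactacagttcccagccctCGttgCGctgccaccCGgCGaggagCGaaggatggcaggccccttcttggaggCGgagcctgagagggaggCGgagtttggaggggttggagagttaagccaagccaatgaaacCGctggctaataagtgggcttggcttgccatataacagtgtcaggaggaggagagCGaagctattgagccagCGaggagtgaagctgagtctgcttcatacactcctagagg
Kcnh4: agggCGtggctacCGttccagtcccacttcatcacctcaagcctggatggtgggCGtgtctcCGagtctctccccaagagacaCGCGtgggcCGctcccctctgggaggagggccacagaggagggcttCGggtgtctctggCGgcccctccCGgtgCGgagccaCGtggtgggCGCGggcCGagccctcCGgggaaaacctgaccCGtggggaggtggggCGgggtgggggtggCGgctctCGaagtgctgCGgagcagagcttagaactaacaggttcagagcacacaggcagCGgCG
Trpm6: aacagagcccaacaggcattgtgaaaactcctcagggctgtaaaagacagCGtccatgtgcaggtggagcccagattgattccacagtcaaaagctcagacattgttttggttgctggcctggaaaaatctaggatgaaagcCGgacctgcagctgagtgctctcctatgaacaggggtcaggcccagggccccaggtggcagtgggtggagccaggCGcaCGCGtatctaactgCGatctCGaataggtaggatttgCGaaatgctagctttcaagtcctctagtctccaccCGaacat
Kcnh1: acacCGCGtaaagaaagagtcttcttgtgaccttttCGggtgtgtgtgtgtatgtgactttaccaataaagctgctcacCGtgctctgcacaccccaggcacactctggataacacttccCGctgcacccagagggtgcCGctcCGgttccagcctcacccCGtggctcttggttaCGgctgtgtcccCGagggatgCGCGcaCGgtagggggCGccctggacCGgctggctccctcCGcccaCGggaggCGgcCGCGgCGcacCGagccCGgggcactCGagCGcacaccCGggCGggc
The Trpv2 window holds 2 CG dinucleotides, the Kcnk13 and Trpm6 windows 9 each, the Kcnn3 window 11, the Kcnh4 window 23 and the Kcnh1 window 27. The genes that stood high in the same library thus ranged from CG-poor to CG-rich, and so did the pair of smallest p. The RefSeq start lies 253 bases from the start in the GENCODE annotation for Trpm6 and 164 bases from it for Kcnh4, and within 3 bases for the other 4 genes. Of the 64 channel genes, 52 had a RefSeq promoter entry. Their windows held a median of 12.5 CG dinucleotides, against 19 over 12110 tested genes with an entry, and 57.7% of them held at least 10, against 75.2%. The letters GAGGAA on either strand, a core form of the site of the myeloid factor PU.1, occurred in 13 of the 52 windows, or 25%, and in 27.3% of all the tested genes' windows. The Trpv2 and Kcnk13 windows held it and the other printed ones did not. Methylation and factor binding were not measured in these libraries.

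Levels across genes were compared as TPM, a share of transcripts that divides by gene length. The channel genes ran from Kcna3, at a mean of 117 TPM over the 5 libraries, to Kcnc2 at 0.22 TPM. There were 16 genes at 10 TPM or more, 27 between 1 and 10, and 21 under 1. The order at the top was Kcna3, Trpv2 at 83.5 TPM, Kcnab2 at 64.4, Kcnn3 at 60.5, Clcn7 at 56.1, Trpm7 at 46.0, Clcn4 at 42.0 and Kcnk5 at 30.0. The ranges over the 5 libraries overlapped for each pair of neighbours in this order, and Kcnn3 spanned 12.9-fold in CPM. The 5 highest genes held 52.8% of the summed TPM of all 64 and the 10 highest held 75.8%. By family, the 17 voltage-gated pore genes summed to a mean of 169 TPM, the 7 CLC genes to 154, the 3 TRPV genes to 97.3, the 3 calcium- or sodium-activated potassium channel genes to 80.2 and the 11 auxiliary subunit genes to 79.2. The 8 tandem-pore potassium channel genes summed to 67.7 TPM, the 6 TRPM genes to 62.0 and the 7 inward rectifier genes to 12.3. A single gene held most of several families, such as Trpv2 with 85.9% of TRPV, Kcnab2 with 81.3% of the auxiliary subunits, Kcnn3 with 75.5% of the activated channels, Trpm7 with 74.2% of TRPM and Kcna3 with 69.2% of the voltage-gated genes.

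**Figure D1:**
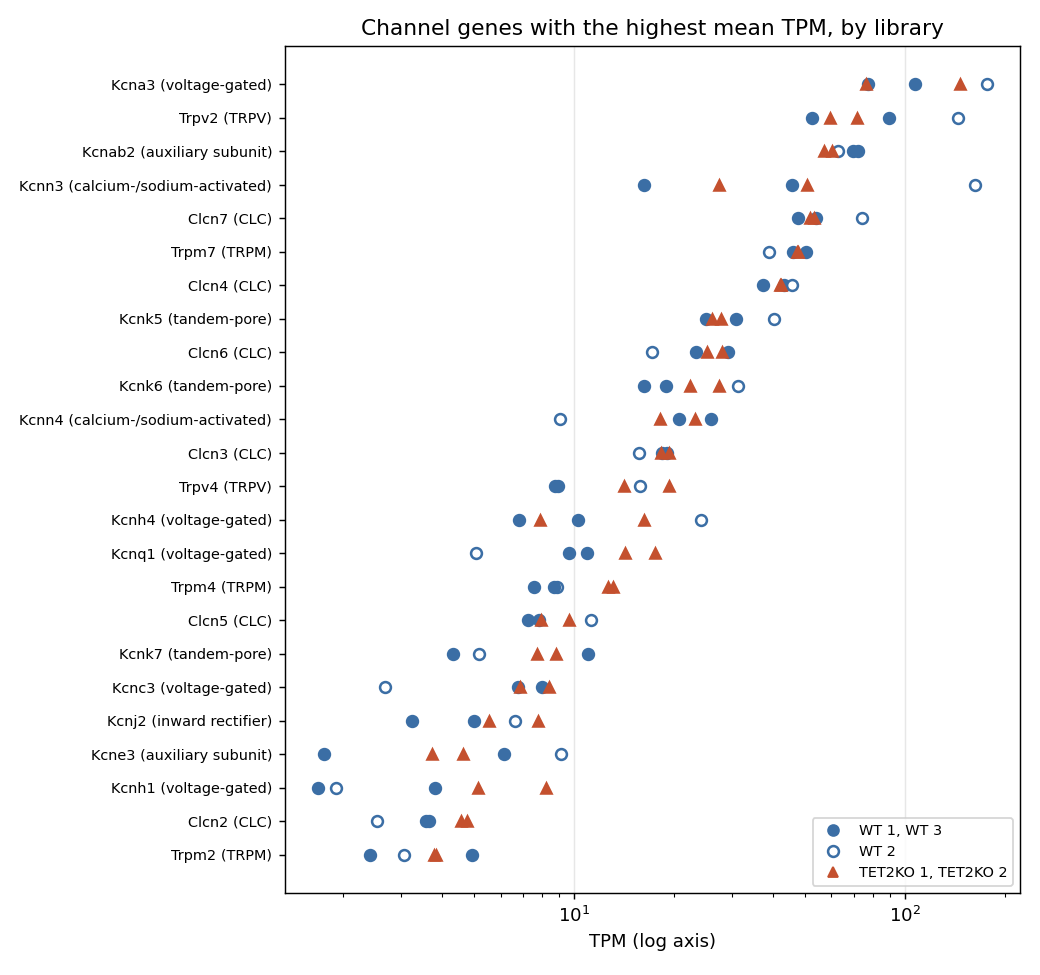
TPM of the channel genes with the highest means in each of the 5 libraries, on a log axis, with WT as circles (WT replicate 2 open) and TET2KO as triangles. Kcna3 leads at a mean of 117 TPM, and the open circle stands to the right for Kcnn3, Trpv2 and Kcnh4.

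The comparison of the groups labelled TET2KO and WT asked how channel transcripts differed between them under angiotensin II. None of the 64 genes passed an adjusted p of 0.05 in edgeR, where the lowest adjusted p was 0.76, and the share called over all genes tested was 0%. DESeq2 called none of the 64 either, while it called 0.326% of all genes. At an unadjusted p under 0.05 edgeR had 4 channel genes higher in TET2KO, or 6.25%, beside 5.32% of all genes. It had 1 lower, or 1.56%, beside 0.539%. These shares were near the background. The split of 4 higher and 1 lower became 6 and 0 with upper quartile scaling, where the 6 higher were 9.4% beside 5.89% of all genes. With library totals it was 9 and 0, and the 9 were 14.1% beside 6.43%. It was 0 and 10 with scaling on the endothelial list, where the 10 lower genes were 15.6% of the channel genes beside 34.3% of all genes. The log2 fold change was above 0 for 35 genes, 54.7% beside 41.6% of all genes, with a median of 0.03 against -0.08 over all genes. Of the channel genes of at least 10 TPM, 4 of 16 (25%) were above 0, beside 27.8% of all genes at that level, and of those under 10 TPM 31 of 48 (64.6%) were, beside 58.0%. Without WT replicate 2 the first share was 8 of 16 (50%), while that of all genes at that level also rose, to 41.5%. The 2 TET2KO libraries were both above all WT libraries for 12 channel genes, or 18.8%, and both below for 4, or 6.25%, where the background was 12.4% above and 12.4% below. The groups overlapped for the remaining 48. The 12 were Trpm6, Kcnh1, Trpv6, Kcnq1, Kcng2, Kcnj15, Trpc1, Kcnj10, Trpm4, Kcnab1, Clcn2 and Kcnmb4, and the 4 were Kcnab2, Trpm1, Trpm7 and Clcn3.

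**Figure D2:**
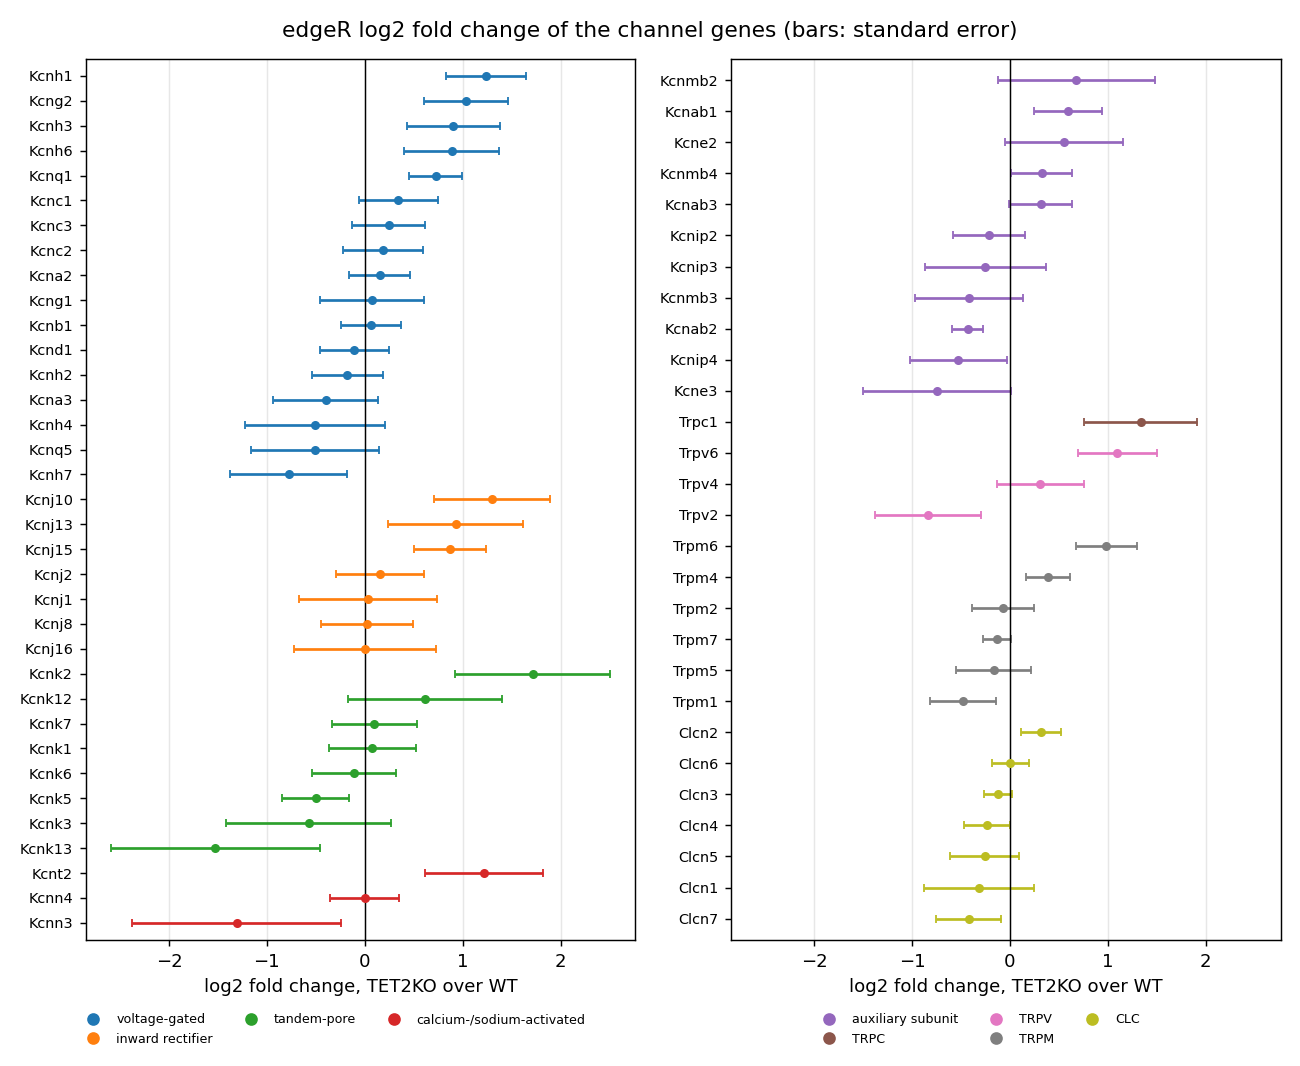
edgeR log2 fold change of TET2KO over WT for the channel genes, coloured by family, with bars of 1 standard error. The estimates run from -1.53 for Kcnk13 to 1.72 for Kcnk2, and none passed the adjusted threshold.

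Libraries of the same genotype differed widely in these genes. The 3 WT libraries spanned at least 2-fold for 34 of the 64 genes, against 6868 of 18727 genes (36.7%). The median span was 2.05-fold against 1.67-fold. This background was not matched for level, as 48 of the 64 genes were under 10 TPM beside 8537 of all genes. The part of low counts in these spans was not tested. WT replicate 2 was the highest of the 5 libraries for 22 channel genes, or 34.4% beside a background of 35%, and the lowest for 23, or 35.9% beside 32.9%. Without WT replicate 2, 62 genes were tested and edgeR had 8 higher at an unadjusted p under 0.05, or 12.9% beside 7.72% of all genes. It had 2 lower, or 3.23% beside 2.45%. The 8 were Trpv4, Trpm4, Kcnk2, Kcnq1, Trpm6, Kcnj10, Kcnk6 and Kcnh1, and the 2 were Kcnq5 and Kcnab2. Without WT replicate 3, 3 were higher, or 4.69% beside 6.34%, namely Kcnh1, Kcnq1 and Trpm6. Trpv2 was lower, or 1.56% beside 1.30%. Leaving out a TET2KO library left that group without replicates, so genes under that p are not counted here for those fits.

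The 5 genes with an unadjusted p under 0.05 belonged to 4 families. Trpm6, on chr19:18749983-18892511 in GRCm38, encodes a magnesium channel fused to a kinase and is best known from kidney and gut. It was at 2.00, 1.39 and 1.59 CPM in WT against 2.87 and 3.69 CPM in TET2KO. Both TET2KO libraries were above every WT library, and the log2 fold change was 0.98 ± 0.31 (SE, edgeR adjusted p = 0.76). Without WT replicate 2 it was 0.90 and without WT replicate 3 it was 0.99. Kcnh1 (chr1:192190774-192510159), a voltage-gated channel of the ether-a-go-go group, was at 3.54, 5.30 and 8.22 CPM in WT against 10.3 and 16.6 CPM in TET2KO. The groups did not overlap, although the WT values themselves spanned more than 2-fold, and the log2 fold change was 1.24 ± 0.41 (SE, edgeR adjusted p = 0.78). It was 1.21 without WT replicate 2 and 1.63 without WT replicate 3. Kcnh1 was the single channel gene in the authors' deposited short table of 217 genes, where its log2 fold change was 1.43 and its adjusted p 0.0401 under the grouping described above.

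Kcnab2 (chr4:152390742-152477871) encodes a cytoplasmic beta subunit of voltage-gated potassium channels with an aldo-keto reductase fold. Its levels were 115, 133 and 114 CPM in WT and 92.1 and 86.8 CPM in TET2KO, all WT libraries lying above both TET2KO libraries. The log2 fold change was -0.43 ± 0.16 (SE, edgeR adjusted p = 0.812) and was -0.33 without WT replicate 2. Trpv6, an epithelial calcium channel gene, had only 59 counts in all, at 0.315, 0.203 and 0.254 CPM in WT and 0.513 and 0.595 CPM in TET2KO. Its log2 fold change was 1.10 ± 0.40 (SE, edgeR adjusted p = 0.821). Kcnq1 (chr7:143106362-143427042), the pore of a slow repolarising current, was at 11.3, 7.87 and 13.2 CPM in WT against 15.9 and 19.7 CPM in TET2KO. Its log2 fold change was 0.72 ± 0.27 (SE, edgeR adjusted p = 0.821), 0.57 without WT replicate 2 and 0.93 without WT replicate 3. The antisense gene Kcnq1ot1 overlaps its exons, and since the strand setting of the counting is not given, reads of both could not be told apart. The same holds for 23 of the 64 genes, each of which shares exon positions with a gene on the opposite strand.

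The next 7 genes by p were low in every library. Kcng2, a silent modifier subunit with 55 counts in all, was at 0.28, 0.236 and 0.222 CPM in WT against 0.392 and 0.626 CPM in TET2KO. Kcnj15, an inward rectifier of epithelia, was at 4.31, 3.11 and 2.32 CPM in WT against 4.62 and 7.26 CPM in TET2KO, with a log2 fold change of 0.87 ± 0.37 (SE). A list of alveolar epithelial genes was also highest in TET2KO replicate 2, at 0.0929, 0.0398 and 0.0351% of counts in WT and 0.0723 and 0.108% in TET2KO, though WT replicate 1 lay above TET2KO replicate 1. Its part in these values was not tested. Trpc1, a component of receptor- and store-operated cation channels, was at 1.29, 0.304 and 0.699 CPM in WT against 2.08 and 1.78 CPM in TET2KO. Kcnj10, an inward rectifier of glia and kidney, had 56 counts in all, at 0.07, 0.338 and 0.254 CPM in WT and 0.604 and 0.501 CPM in TET2KO. These 4 genes were above all WT libraries in both TET2KO libraries, with the first WT value of Kcnj15 close to the lower TET2KO value. A list of 6 mesothelial genes separated the groups in the same way as the genes above all WT libraries. It held 0.0015, 0.000765 and 0.001% of counts in WT and 0.00321 and 0.00461% in TET2KO, with 6 of 6 genes above all WT libraries and a median log2 fold change of 1.71, and its part in these values was not tested. Kcnk2, a stretch- and lipid-gated potassium channel gene, was instead high in a single library, at 0.595, 1.28 and 0.286 CPM in WT against 0.966 and 3.79 CPM in TET2KO. Its log2 fold change of 1.72 ± 0.79 (SE, edgeR adjusted p = 0.864) was 0.42 without TET2KO replicate 2. Leaving out WT replicate 2 gave 2.46 and leaving out WT replicate 3 gave 1.36. Kcnt2, a sodium-activated potassium channel gene, was at 0.385, 0.338 and 0.349 CPM in WT against 0.362 and 1.31 CPM in TET2KO, and its log2 fold change went from 1.22 to 0.02 without TET2KO replicate 2. Kcnh3 was at 0.385, 0.473 and 0.762 CPM in WT against 0.724 and 1.31 CPM in TET2KO, and its log2 fold change of 0.90 was 0.42 without TET2KO replicate 2. Kcnk2, Kcnt2 and Kcnh3 were thus each highest in TET2KO replicate 2. The airway epithelial list held 0.0314, 0.048 and 0.03% of counts in WT and 0.0494 and 0.129% in TET2KO, highest in that same library, and its part in these values was not tested.

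**Figure D3:**
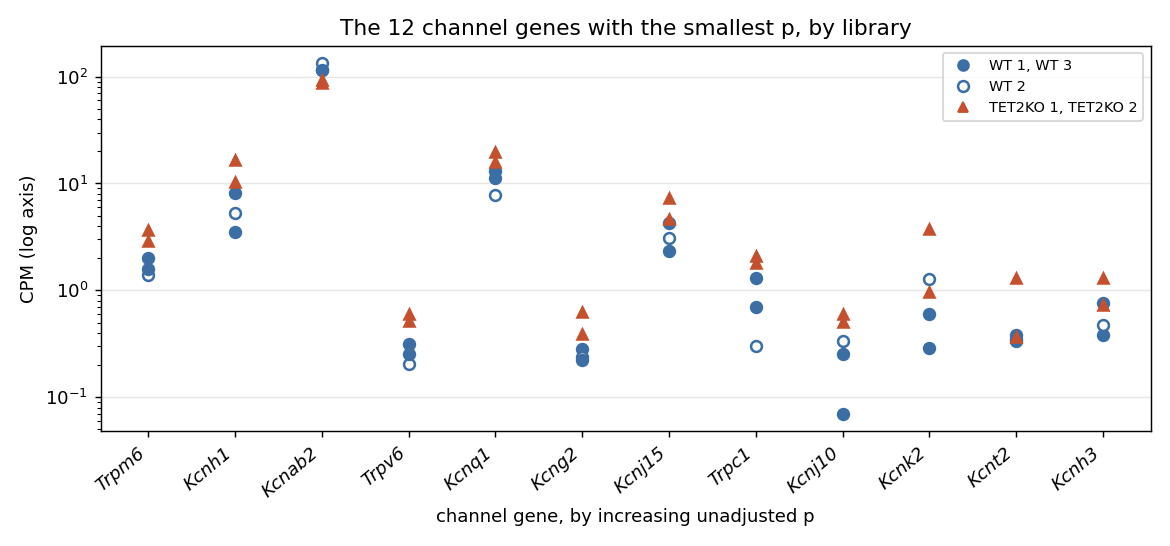
CPM of the 12 channel genes with the smallest edgeR p in each library, on a log axis, with WT as circles (WT replicate 2 open) and TET2KO as triangles. Both triangles lie above all circles for Trpm6 and Kcnh1 and below all for Kcnab2, while Kcnk2 and Kcnt2 have a single high triangle.

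Among the voltage-gated pore genes, 11 of 17 had a log2 fold change above 0, with a median of 0.15, and without WT replicate 2 these were 10 and 0.08. Kcna3, the channel that sets the membrane potential of T cells and is also carried by macrophages, was the highest by TPM. Its levels were 58.4, 128 and 43.4 CPM in WT and 39.7 and 76.3 CPM in TET2KO. The groups overlapped widely, and the log2 fold change of -0.40 ± 0.53 (SE, edgeR adjusted p = 0.886) was 0.22 without WT replicate 2 and -0.66 without WT replicate 3. Kcnq5, a subunit of the slow M-type current, was at 9.52, 2.23 and 10.1 CPM in WT against 6.07 and 4.16 CPM in TET2KO. It is named after its values were seen, because leaving out WT replicate 2, its lowest library, took its log2 fold change from -0.51 to -0.91 (edgeR adjusted p = 0.418). It was -0.16 without WT replicate 3. A list of B cell genes was also lowest in WT replicate 2, at 0.434, 0.124 and 0.529% of counts in WT and 0.381 and 0.241% in TET2KO, and its part in these values was not tested. The 10 voltage-gated genes not described by library had mean levels of 0.22 to 6.55 TPM, with none past the threshold.

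All 7 inward rectifier genes had a log2 fold change above 0, from 0.00 for Kcnj16 to 1.30 for Kcnj10, but this count fell to 3 without TET2KO replicate 2 and to 4 without WT replicate 2, and none passed the test. Scaling on the endothelial list put Kcnj2 at -0.75 and Kcnj8 at -0.73. Kcnj2, whose channel responds to shear stress in endothelium, was the highest of them at 5.63 TPM. It was at 5.04, 13.7 and 7.97 CPM in WT against 8.24 and 11.6 CPM in TET2KO, with overlapping groups and a log2 fold change of 0.16 ± 0.45 (SE), which was 0.63 without WT replicate 2 and -0.12 without WT replicate 1. Kcnj8, the pore of vascular ATP-sensitive channels, was at 1.23, 0.473 and 0.889 CPM in WT against 0.845 and 0.907 CPM in TET2KO, a log2 fold change of 0.02 ± 0.47, or -0.23 without WT replicate 2. Abcc9, which encodes the sulfonylurea receptor that pairs with it, had a log2 fold change of 0.30 ± 0.33. Both differences were smaller than their standard errors.

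The 8 tandem-pore genes carry background potassium currents. Kcnk3, in which loss-of-function variants cause heritable pulmonary arterial hypertension in people, was at 1.33, 2.40 and 0.286 CPM in WT against 0.634 and 1.16 CPM in TET2KO. Its WT libraries bracketed both TET2KO libraries, and the log2 fold change was -0.57 ± 0.84 (SE, edgeR adjusted p = 0.896), or 0.21 without WT replicate 2. Kcnk5, an alkaline-activated channel gene and the highest of this family, was at 29.6, 51.2 and 24.7 CPM in WT against 24.1 and 25.6 CPM in TET2KO. Its log2 fold change was -0.50 ± 0.34 (SE) and -0.10 without WT replicate 2. Kcnk6, a potassium efflux channel of macrophages, was at 22.5, 49.5 and 19.9 CPM in WT against 25.4 and 31.2 CPM in TET2KO. Its log2 fold change went from -0.11 ± 0.43 (SE) to 0.45 without WT replicate 2 (edgeR adjusted p = 0.469). All 3 genes were highest in WT replicate 2.

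The calcium-activated channels of endothelium, Kcnn3 of small and Kcnn4 of intermediate conductance, are known for endothelium-dependent hyperpolarisation of the vessel wall. Kcnn4 was at 30.4, 17.6 and 38.9 CPM in WT against 32.4 and 25.4 CPM in TET2KO. Its groups overlapped fully, with a log2 fold change of -0.00 ± 0.35 (SE, edgeR adjusted p = 0.999), or -0.24 without WT replicate 2 and 0.30 without WT replicate 3. Kcnn3 (chr3:89520164-89675132) was at 136, 644 and 49.9 CPM in WT against 78.2 and 145 CPM in TET2KO. A single WT library set its mean, and the log2 fold change of -1.31 ± 1.06 (SE, edgeR adjusted p = 0.864) turned to 0.30 without WT replicate 2. Kcnn3 made up 11.4, 30.1 and 4.88% of all channel gene counts in WT and 7.41 and 12.2% in TET2KO. All 64 genes together were 0.125, 0.179 and 0.104% of counts in WT and 0.112 and 0.127% in TET2KO. Kcnma1, the pore of the large-conductance channel, had 0 counts in all 5 libraries, which allows up to 3 counts, or 0.0905 to 0.105 CPM per library.

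The 11 auxiliary subunit genes, Kcnab2 among them, had a median log2 fold change of -0.21, with 5 of 11 above 0. Kcne3, a subunit that holds Kcnq1 channels open, was at 3.12, 6.18 and 0.921 CPM in WT against 1.81 and 2.25 CPM in TET2KO. The WT libraries spanned the TET2KO values, and the log2 fold change went from -0.74 ± 0.76 (SE) to 0.06 without WT replicate 2. The other auxiliary genes had mean levels under 3 TPM and none passed the test.

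Of the TRP genes, Trpv2 (chr11:62574486-62600515), a cation channel gene of macrophages with a role in phagocytosis, was the most abundant. It was at 114, 247 and 68.9 CPM in WT against 72.6 and 88.2 CPM in TET2KO. WT replicate 3 lay below both TET2KO libraries, and the log2 fold change of -0.83 ± 0.54 (SE, edgeR adjusted p = 0.864) was -0.15 without WT replicate 2 and -1.14 without WT replicate 3. Trpv4, the shear- and osmotically gated calcium channel of lung endothelium whose opening raises vascular permeability, was at 10.4, 24.5 and 10.5 CPM in WT against 15.8 and 21.7 CPM in TET2KO. WT replicate 2 was the highest library and the other WT libraries the lowest. The log2 fold change was 0.31 ± 0.44 (SE, edgeR adjusted p = 0.893), and without WT replicate 2 it was 0.87 ± 0.21 with an adjusted p of 0.397. Leaving out any other library gave 0.07 to 0.52, with 0.13 without WT replicate 3. Scaling on the endothelial list gave -0.63.

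Trpm7, a magnesium and calcium channel with a kinase domain, was the most even of the channel genes, at 163, 167 and 152 CPM in WT against 148 and 146 CPM in TET2KO. Its 5 libraries stayed within 1.14-fold, and the log2 fold change was -0.13 ± 0.14 (SE), or 0.01 with library totals. Trpm7 was 1 of 4 channel genes within 1.5-fold over the 5 libraries, with Clcn2, Clcn3 and Clcn6, beside 28.4% of all genes. Trpm4, a calcium-activated monovalent cation channel gene, was at 23.5, 36.5 and 27.7 CPM in WT against 37.5 and 39.0 CPM in TET2KO. The gap between the highest WT and the lowest TET2KO library was small, and the log2 fold change of 0.39 ± 0.22 (SE, edgeR adjusted p = 0.864) was 0.61 without WT replicate 2 (edgeR adjusted p = 0.402) and -0.48 when libraries were scaled on the endothelial list. Trpm2, opened by ADP-ribose in oxidative stress, was at 17.3, 14.3 and 8.79 CPM in WT against 12.7 and 12.9 CPM in TET2KO. Its TET2KO values lay within the WT range, with a log2 fold change of -0.07 ± 0.31 (SE), or -0.27 without WT replicate 3. Trpm1 and Trpm5 were under 1 TPM on average.

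The 7 CLC genes summed to similar levels in all libraries, with 151, 167 and 144 TPM in WT and 157 and 150 TPM in TET2KO. Most of it came from exchangers of endosomes and lysosomes. Clcn7, the lysosomal exchanger, was at 81.7, 149 and 73.9 CPM in WT against 76.8 and 74.7 CPM in TET2KO. Its log2 fold change was -0.42 ± 0.34 (SE) and -0.01 without WT replicate 2. Ostm1, its obligate subunit, was likewise highest in WT replicate 2, at 50.6, 95.3 and 44.6 CPM in WT and 48.3 and 47.7 CPM in TET2KO. Clcn3, of endosomes and synaptic-like vesicles, was at 93.1, 102 and 92.5 CPM in WT against 90.4 and 85.9 CPM in TET2KO. Both TET2KO values were the lowest of the 5, by a margin smaller than the SE, with a log2 fold change of -0.12 ± 0.14 (edgeR adjusted p = 0.875), or 0.02 with library totals. Clcn4, Clcn5 and Clcn6 had log2 fold changes of -0.23, -0.26 and 0.00, and of 0.01, 0.17 and -0.04 without WT replicate 2. Clcn2, a plasma membrane chloride channel gene named after its values were seen, was at 6.16, 5.81 and 6.48 CPM in WT against 7.82 and 7.51 CPM in TET2KO, a log2 fold change of 0.32 ± 0.20 (SE).

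Of the 64 genes, 4 were at least 2-fold higher in WT replicate 2 than in every other library, beside 6.02% of all genes. They were Trpv2, Kcnk13, Kcnn3 and Kcnh4, and Kcnk13 and Kcnh4 are named after their values were seen. Kcnk13, the tandem-pore channel of microglia and other macrophages, was at 1.01, 7.67 and 0.953 CPM in WT against 0.845 and 1.38 CPM in TET2KO. Kcnh4 was at 11.7, 36.3 and 7.94 CPM in WT against 8.54 and 17.6 CPM in TET2KO. Without WT replicate 2 their log2 fold changes went from -1.53 to 0.20 and from -0.51 to 0.45. The macrophage and monocyte list was also highest in WT replicate 2 and spanned 10.3-fold over the libraries. Its gene Chil3 was at 3117, 15519 and 933 CPM in WT against 1208 and 3051 CPM in TET2KO, and Marco was at 72.3, 484 and 38.9 CPM in WT against 58.0 and 68.3 CPM in TET2KO. Not every gene of the list went this way. Ccr2 was lowest in WT replicate 2, at 28.9, 15.6 and 23.5 CPM in WT against 25.2 and 35.6 CPM in TET2KO. Csf1r differed less, at 259, 278 and 138 CPM in WT against 164 and 248 CPM in TET2KO.

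Expressed per 1000 counts of that list, Kcnn3 was at 13.2, 16.2 and 13.7 in WT and at 14.9 and 14.9 in TET2KO. Its span of 12.9-fold in CPM became 1.23-fold on this scale. Kcnn3 was the only channel gene within 1.5-fold there, beside 0.513% of all genes tested. On the same scale Kcnh4 spanned 2.39-fold, Kcnk13 2.67-fold, Trpv2 3.05-fold, Kcna3 3.71-fold and Trpm7 9.96-fold, and the median channel gene spanned 11.7-fold. Lyz2 alone gave 45.7 to 54.1% of the counts of the list. The scale was chosen after the values of Kcnn3 were seen, and the part of macrophage content in the level of any channel gene was not tested.

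**Figure D4:**
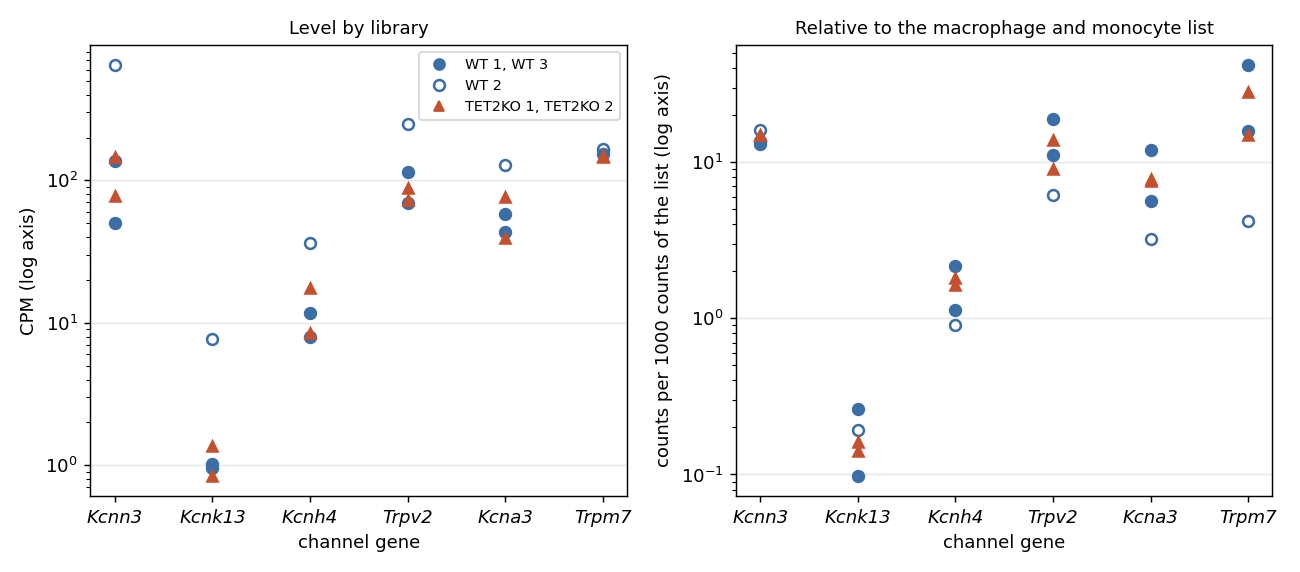
Left, CPM of 6 channel genes by library on a log axis, and right, their counts per 1000 counts of the macrophage and monocyte list, also on a log axis, with WT as circles (WT replicate 2 open) and TET2KO as triangles. Kcnn3 spans 12.9-fold on the left and 1.23-fold on the right, while Trpm7 spans 1.14-fold on the left and 9.96-fold on the right.

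Per 1000 counts of the endothelial list, Kcnq1 was at 2.96, 2.72 and 2.68 in WT and at 2.43 and 3.01 in TET2KO. It spanned 1.24-fold on this scale and was the only channel gene within 1.5-fold. That is 1 of 64, a smaller share than the 3.48% of all genes. Trpm6 spanned 1.75-fold and Kcnh1 2.73-fold on the same scale. When the libraries were scaled on the endothelial list, 0 channel genes were higher and 10 lower at an unadjusted edgeR p under 0.05. The 10 lower were 15.6% of the channel genes, beside 34.3% of all genes. The median of all genes shifted by -0.81 on the log2 scale. The log2 fold change of Kcnq1 was then -0.03 and that of Trpm6 0.19. The directions of the genes above are therefore relative to all genes, not to the endothelial list, and the part of endothelial content in them was not tested.

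Among 80 partner genes, such as other chloride channels, store-operated calcium entry genes and sodium channels, 70 were tested. None passed an adjusted p of 0.05 in edgeR. At an unadjusted edgeR p under 0.05, 4 were higher, or 5.71% beside 5.32% of all genes. There were 0 lower, beside 0.539% of all genes. These shares were near the background, and the median log2 fold change was 0.10 against -0.08 over all genes. The partner genes described next were picked by their small p. Ano1, the calcium-activated chloride channel gene, was at 1.47, 1.96 and 1.94 CPM in WT against 3.98 and 5.79 CPM in TET2KO. Its groups were apart, with a log2 fold change of 1.45 ± 0.31 (SE, edgeR adjusted p = 0.74). Clic5, an intracellular chloride channel protein gene of lung endothelium, was at 152, 127 and 209 CPM in WT against 315 and 317 CPM in TET2KO, a log2 fold change of 0.96 ± 0.24 (SE). Scnn1a, a subunit of the epithelial sodium channel, had a log2 fold change of 0.99 ± 0.33 (SE).

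The minimum of 50 counts left out 59 of the 123 genes with a matching name, of which 15 had no count in any library. The genes just inside were Kcnmb2 with 54 counts, Kcnk12 with 55 and Kcng2 with 55. Just outside were Kcns1 with 46 counts and Kcnd3 with 46. Several channels studied in pulmonary vessels fell below the minimum. Kcna5, the oxygen-sensitive channel of pulmonary artery muscle, had 16 counts in all, and Trpc4, a store-operated channel of endothelium, had 3. Trpc6, the receptor-operated channel of pulmonary artery muscle, had 5, 3 and 3 counts in WT and 14 and 11 in TET2KO. The smooth muscle and pericyte list held 0.0017 to 0.00268% of counts over the 5 libraries.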

How the data were processed

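Poly(A) RNA-seq of lung endothelial cells from 3 WT and 2 TET2KO libraries was used, with groups from the labels. The tools named per the submitters' processing notes are STAR 2.5.2b, Trimmomatic 0.36, Subread 1.5.2 with featureCounts, and DESeq2, on the mouse build GRCm38. Whether counting used strand is not given in the sources used here. The authors deposited read counts per gene and TPM values. Per the file headers, their deposited comparison held size-factor normalized counts (a signal), p-values before and after adjustment and log2 fold changes. Total counts ranged from 27346804 to 35440257, and edgeR's biological coefficient of variation was 0.339.

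The test was edgeR 4.0.16 in R 4.3.3 (quasi-likelihood F test, TMM scaling, filterByExpr, genotype as the only term), with Benjamini-Hochberg adjustment over 18727 genes and 0.05 as the threshold. CPM used TMM-scaled totals, SE is the absolute log2 fold change over the square root of F, and errors after ± are SEs. The SEs include the scatter between libraries, while the floors for genes with 0 counts cover counting error only. Code was tested on simulated data.

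Alternatives were DESeq2 1.42.0, limma-voom and limma 3.58.1 on log2(TPM + 1) or log2(TPM + 0.1), the legacy edgeR spread, RLE, upper quartile, library total and endothelial list scaling, no filter, a filter of 1 CPM in 2 libraries, leaving out each library, a replicate block, and a minimum of 10 or 500 counts.

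The members and lists were chosen with earlier results of these data known. Genes described by library were the 12 of smallest p, the highest of each family by TPM and those of a list of 23 with a textbook role in endothelium, vessel wall or leukocytes, 28 in all, beside 4 under the minimum. Partner genes were the 4 of smallest p and known subunits of these genes. A few genes are not reported here.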

Additional observations from a re-analysis of the deposited data

How the results depend on the processing

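Depth limits genes under about 1 CPM, where a library holds few counts, and 3 against 2 libraries limits all. No channel or partner gene passed an adjusted p of 0.05 in edgeR, limma or DESeq2 under any alternative. At an unadjusted p under 0.05, edgeR had 5 channel genes. There were 9 with library totals and 10 with endothelial list scaling, and leaving out each library in turn gave 0 to 10. The partner genes, 4 of which were under that p, gave 7 with DESeq2, 7 with library totals, 18 with endothelial list scaling, 7 without a filter, 7 with limma on either TPM scale and 2 to 11 without each library. The share of all genes under that p moved as well. It was 5.86% in the main test, 6.54% with library totals and 34.4% with endothelial list scaling. The channel genes were at 7.81, 14.1 and 15.6% there. Without WT replicates 1, 2 and 3 it was 3.95, 10.2 and 7.63% of all genes, beside 6.25, 16.1 and 6.25% of the channel genes. DESeq2 gave 6.23% of all genes, no filter 5.48%, and limma on the TPM scales 7.12 and 6.45%. The median log2 fold change of the channel genes, 0.03, was 0.13 with library totals, -0.73 with endothelial list scaling, 0.18 on log2(TPM + 1), 0.28 on log2(TPM + 0.1) and -0.10 to 0.14 without each library. Against the main scaling, the median of all genes shifted by 0.14 with library totals, -0.81 with the endothelial list, and 0.21 and 0.24 on the TPM scales. Of genes whose log2 fold change exceeded its SE, Kcnq1 went to -0.03 and Trpm4 to -0.48 with endothelial list scaling, and Kcnn3 to 0.30 without WT replicate 2, within a range of -1.83 to 0.30 without each library. The causes were not tested, apart from fewer libraries. A minimum of 500 summed counts left 26 genes, with a median of -0.09.

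The labels tie no replicate number to a shared animal, litter or day. Deviations from the group means correlated over genes at 0.22 for the first and 0.49 for the second same-numbered pair. The value was 0.45 for WT replicate 3 with TET2KO replicate 1, whose numbers differ. Deviations of the 2 TET2KO libraries mirror each other, so the sign flips with the other one, as at -0.49 for WT replicate 2 with TET2KO replicate 1. The WT deviations are tied to each other as well, so these values cannot show whether libraries were paired. With the replicate number as a block, 18 channel genes (8 higher, 10 lower, 28.1% beside 15.9% of all genes) were under an unadjusted edgeR p of 0.05. So were 17 partner genes. The median of the channel genes was 0.14, and no gene passed the adjusted threshold. Replicate number 3 occurs in WT only, so WT replicate 3 added nothing to the genotype difference in this fit. That difference rests on the same-numbered pairs, which the labels do not tie together.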
